A study of Homo sapiens with 48 samples.

Results

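The comparison of HK-2 cells exposed to the compound Ra for 12 h with cells exposed to vehicle for 12 h rests on 6 of the 48 arrays in the series, 3 of Ra and 3 of vehicle, chosen by their labelled compound and time. HK-2 is an established human line of immortalised proximal tubular epithelial cells, the cell type that reabsorbs most of what the kidney filters. The Ra group held 3 biological replicates of HK-2 cells treated with Ra for 12 h, and the vehicle group held 3 of HK-2 cells given vehicle for 12 h. These vehicle arrays also served as the controls of a further compound, Fk, in the same experiment. All cells grew in a medium with insulin, hydrocortisone and epidermal growth factor, and were seeded 24 h before treatment. The series asked which expression changes mark compounds toxic to the kidney, and it holds CsA and Nnm as other compounds, for a total of 16 groups of 3 arrays. The sources used here state neither the dose of Ra, nor its full name, nor the vehicle, so the comparison stands for the single dose that was labelled Ra. All statements hold for this 1 cell line. No label gives the origin of the replicates beyond the word biological, so the p-values measure the spread between arrays. In a fit over all 48 arrays that spread is pooled over the 16 groups, and in a fit over the 6 it is that of the Ra and vehicle groups.

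Several of the gene groups described here answer to growth factors and nutrients. Ribosome biogenesis is the making of ribosomal RNA and its assembly with ribosomal proteins in the nucleolus, and growing cells spend much of their energy on it. Autophagy is the delivery of cytoplasm to lysosomes, which starving cells use to recycle amino acids. FOXO transcription factors are held out of the nucleus while insulin signals, and they drive genes of growth arrest and protein breakdown when it stops. Interferon-stimulated genes encode antiviral proteins and share a response element in their promoters that binds STAT and IRF factors.

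Values were log2 expression per probe set, with 1 probe set kept per gene for 11356 genes. Two-sided moderated tests from limma were run in 2 ways. The fit over all 48 arrays, which shares 1 estimate of each gene's spread among 16 groups, called 8 genes at an adjusted p under 0.05, 6 higher and 2 lower in Ra, or 0.0704% of genes tested. The fit over only the 6 arrays called 651, 395 higher and 256 lower, or 5.73% of genes (3.48% higher and 2.25% lower). The median standard error of a difference was 0.12 over the 6 arrays and 0.26 over all 48. The Ra arrays and the vehicle arrays of 12 h had the lowest spread of any group, with a median SD over genes of 0.14 in each, against 0.16 to 0.43 in the other groups. Of the 8 genes, 6 were called by both fits. "Rose" and "fell" are used below for genes called by at least 1 of the fits, which is named each time. As a further and purely descriptive measure, the 3 Ra values and the 3 vehicle values did not overlap for 32.2% of all genes, 17.2% higher and 15% lower in Ra. The balance depended on scaling: 1948 lay higher and 1703 lower, against 1588 and 2025 with centred arrays and 1742 and 1987 with quantile normalisation. Replicates with the same number deviated together in the 2 groups, so a fit with the replicate number as a block was run too. Over all 48 arrays that fit called 77 genes, 56 higher and 21 lower, which include the 8.

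The 6 arrays looked alike at the level of the whole transcriptome. Correlations across the 11356 genes were 0.991 to 0.994 between arrays of a group and 0.983 to 0.989 between an Ra and a vehicle array. The median log2 difference over all genes was 0.02, and 130 genes were higher and 20 lower in Ra by at least 1 log2 unit. Of 29 proximal tubule genes with a probe set, 9 lay above log2 4 on all 6 arrays, among them DPP4, ENPEP, PDZK1 and SLC3A1, while LRP2, CUBN and AQP1, which define the differentiated tubule, did not. Of 10 leukocyte markers with a probe set, 0 lay above log2 4, and of 12 endothelial markers only PECAM1 did. Of 12 markers of other nephron segments 2 did, PODXL and SCNN1A. Of 12 fibroblast markers 4 did, COL1A1, DCN, LUM and ACTA2, and the mean log2 level of the fibroblast list was 4.64 to 4.73 in Ra and 4.51 to 4.65 in vehicle. The arrays measured the RNA of a whole culture, so a change in every cell and a change in some of the cells cannot be told apart.

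KLHL24 was the gene with the smallest adjusted p over all arrays. This Kelch-family protein recruits substrates to a cullin ubiquitin ligase. Its log2 level was 9.53, 9.67 and 8.97 in the Ra arrays, against 7.30, 7.48 and 7.15 in the vehicle arrays. All Ra values lay well above all vehicle values. KLHL24 rose by 2.08 ± 0.32 (SE) on the log2 scale, or 4.22-fold, with an adjusted p of 0.0019 over all arrays and 0.013 over the 6. It was also the gene that passed in each of the 6 refits that left out 1 of these arrays, with an adjusted p of at most 0.040. Of its 4 other probe sets, 3 had the same sign, and they ran from -0.01 to 2.04. With the mean of its probe sets KLHL24 differed by 1.54 and missed over all arrays (adjusted p = 0.081).

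CREBRF encodes a protein that binds the transcription factor CREB3 and speeds its loss. It had log2 values of 8.12, 8.02 and 7.73 in Ra, against 6.32, 5.56 and 5.70 in vehicle. The groups were separated by more than 1 log2 unit. The rise was 2.09 ± 0.41 (SE), 4.27-fold, with an adjusted p of 0.025 over all arrays. The 4 other probe sets of CREBRF ran from 0.12 to 1.94, and the mean of its probe sets differed by 1.14, which missed over all arrays (adjusted p = 0.37) and passed over the 6 (adjusted p = 0.015). UBALD2, named for a ubiquitin-binding-like domain, had values of 9.39, 9.58 and 9.12 in Ra, against 7.54, 7.05 and 7.52 in vehicle, and rose by 1.99 ± 0.40 (adjusted p = 0.026). NATD1, named for an N-acetyltransferase domain, had 6.91, 7.14 and 6.31 in Ra, against 5.01, 5.00 and 4.61 in vehicle, and rose by 1.92 ± 0.37 (adjusted p = 0.023). Its other probe set moved by only 0.01, and the mean of the 2 differed by 0.96 and passed (adjusted p = 0.021). SULT1C2, a cytosolic sulfotransferase that conjugates drugs and hormones, had 9.35, 9.54 and 8.90 in Ra, against 8.05, 7.84 and 6.89 in vehicle, and rose by 1.67 ± 0.33 (adjusted p = 0.025). None of these 4 genes overlapped between the groups.

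IFIT2 is an interferon-induced protein that binds RNA and slows translation. It had log2 values of 9.57, 10.24 and 8.86 in Ra, against 8.03, 7.64 and 6.62 in vehicle. The 3 values of each group were spread widely, with an SD of 0.69 in Ra and 0.73 in vehicle. Its difference of 2.12 ± 0.43 (SE) passed over all arrays (adjusted p = 0.026), narrowly missed over the 6 arrays (adjusted p = 0.0503) and passed there with the replicate block (adjusted p = 0.032). A second probe set gave 1.95.

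Of the 2 genes that fell, LTV1 is an assembly factor of the small ribosomal subunit. Its log2 values were 9.12, 9.12 and 9.38 in Ra, against 10.11, 10.21 and 9.98 in vehicle. The groups did not overlap, and LTV1 fell by 0.89 on the log2 scale (SE 0.16), with an adjusted p of 0.015 over all arrays. TNFRSF10C is a decoy receptor that binds the death ligand TRAIL without signalling. It lay at 4.20, 4.25 and 4.05 in Ra, against 4.86, 4.56 and 5.55 in vehicle. These levels are close to the filter level of log2 4, and the fall of 0.82 (SE 0.15) passed over all arrays (adjusted p = 0.015) but not over the 6 (adjusted p = 0.098). Apart from KLHL24, the 8 genes passed in 1 to 3 of the 6 refits that left out 1 array of the comparison. The total number of calls was then 1 without Ra replicate 1 or vehicle replicate 3, 2 without vehicle replicate 2, 3 without Ra replicate 2, and 10 and 11 without Ra replicate 3 or vehicle replicate 1.

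**Figure D1:**
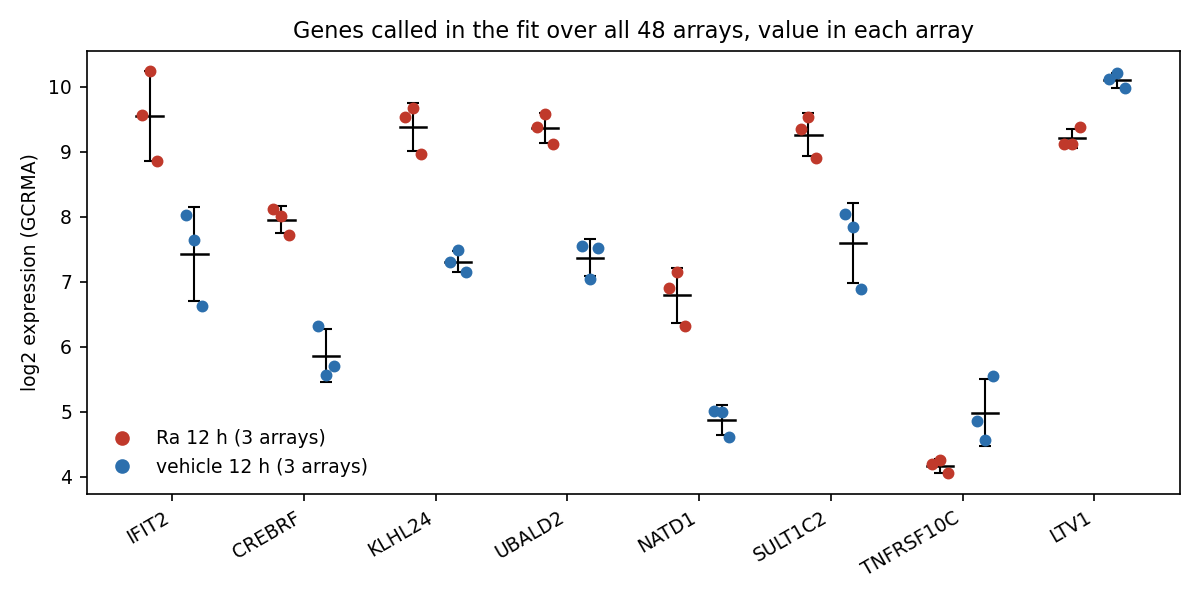
Log2 expression of the 8 genes called over all 48 arrays in each of the 3 Ra arrays (red) and the 3 vehicle arrays (blue) of 12 h. Points are arrays, the horizontal lines are group means and the bars are 1 SD. The Ra values lie above all vehicle values for 6 genes and below them for TNFRSF10C and LTV1.

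RefSeq promoter windows of the GRCh38.p14 build were found for 6 of the 8 genes, and those of KLHL24, CREBRF and NATD1 are shown, KLHL24 as the gene with the smallest adjusted p and the other two as the called genes whose windows hold the E-box. Each holds the 250 bases before the annotated start, written 5′ to 3′ on the strand of the gene. The capitals mark the palindromic E-box CACGTG, which CREBRF (chr5:173056102-173056351, plus strand) and NATD1 (chr17:21253411-21253660, minus strand) hold 2 times each. The KLHL24 window (chr3:183635373-183635622, plus strand) held none of the 4 motifs searched on both strands, which were the E-box, the FOXO core GTAAACA, the interferon-stimulated response element (GAAA, any 2 bases, GAAA) and the cAMP response element TGACGTCA. No motif contains another.
KLHL24: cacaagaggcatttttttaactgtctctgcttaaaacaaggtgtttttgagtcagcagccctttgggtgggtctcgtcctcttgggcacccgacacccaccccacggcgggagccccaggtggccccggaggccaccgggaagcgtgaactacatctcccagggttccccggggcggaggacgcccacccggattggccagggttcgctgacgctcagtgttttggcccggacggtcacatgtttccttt
CREBRF: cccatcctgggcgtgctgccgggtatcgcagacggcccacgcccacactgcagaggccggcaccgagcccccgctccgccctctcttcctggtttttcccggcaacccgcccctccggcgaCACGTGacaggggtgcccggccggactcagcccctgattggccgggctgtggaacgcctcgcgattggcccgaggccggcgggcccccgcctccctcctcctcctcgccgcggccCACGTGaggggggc
NATD1: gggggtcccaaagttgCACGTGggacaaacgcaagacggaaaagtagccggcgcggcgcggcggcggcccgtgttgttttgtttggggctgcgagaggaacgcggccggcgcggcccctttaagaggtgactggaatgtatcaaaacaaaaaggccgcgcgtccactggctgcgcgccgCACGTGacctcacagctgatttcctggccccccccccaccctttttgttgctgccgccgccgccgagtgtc
The E-box was present in 6.49% of all 27305 promoter windows and in 9.22% of the windows of genes tested. Of 337 windows of genes higher over the 6 arrays 8.9% held it, and of 210 windows of genes lower 11.4% did. The FOXO core was found in 0 of 22 windows of the FOXO target list, against 2.98% of all windows, 1.85% of those of genes tested, 3.86% of those of genes higher over the 6 arrays and 5.24% of those of genes lower. The windows of LTV1, SULT1C2 and UBALD2 also held none of the 4 motifs.

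The larger set called over the 6 arrays extended to both directions with modest sizes. The median rise was 0.70 and the median fall -0.54 on the log2 scale, and 83 of the 651 genes moved by at least 1, 73 higher and 10 lower. All 651 were non-overlapping, which the call nearly requires. The number of calls depended on every array. There were 349 without Ra replicate 3, 52 without Ra replicate 1 and 3 without vehicle replicate 1. There were 0 without Ra replicate 2, vehicle replicate 2 or vehicle replicate 3. In the refits with 0 calls by limma, 2214, 2701 and 2547 genes had an unadjusted p under 0.05. The lowest adjusted p there was 0.065, 0.052 and 0.054. No gene kept its call in all 6 refits. In each refit all 651 kept their sign and had an unadjusted p under 0.05. The refits share arrays with the call, so this is partly set by the choice of genes. With the replicate block, the 6-array fit called 621 genes, 404 higher and 217 lower, of which 415 were among the 651.

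Among genes called over the 6 arrays with a group mean above log2 6, the largest rises after CREBRF, KLHL24 and UBALD2 were led by the interferon-stimulated gene IFI44L. IFI44L had log2 values of 6.56, 7.50 and 6.44 in Ra, against 5.09, 5.23 and 4.42 in vehicle, and rose by 1.92 over the 6 arrays (adjusted p = 0.035). ARPIN, an inhibitor of branched actin assembly, had 6.13, 6.49 and 6.69 in Ra, against 4.30, 4.02 and 5.40 in vehicle, and rose by 1.86. ANKRA2, an ankyrin-repeat adaptor, had 6.62, 6.52 and 6.90 in Ra, against 4.70, 4.94 and 5.25 in vehicle, and rose by 1.72. In each the 2 groups were apart. RHEBL1, a small GTPase of the Rheb family that can activate the growth kinase mTOR, had 7.56, 7.04 and 7.37 in Ra, against 6.16, 5.79 and 5.46 in vehicle, and rose by 1.52 (adjusted p = 0.022), with a second probe set at 2.03. ABTB1 rose by 1.69 and the membrane-skeleton adaptor ANK2 by 1.48. Their second probe sets differed by 0.46 and 0.18, and the means of their probe sets by 1.08 and 0.83. With the block, IFI44L, ARPIN, ANKRA2 and ABTB1 also passed over all 48 arrays (adjusted p = 0.0050, 0.038, 0.041 and 0.018).

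By the same rule the largest fall was that of ZBED2, a zinc finger protein. Its log2 values were 7.05, 6.44 and 6.69 in Ra, against 8.02, 8.26 and 8.62 in vehicle, and it fell by 1.57 over the 6 arrays (adjusted p = 0.020). CCND2 encodes cyclin D, which drives entry into the cell cycle. It had 8.58, 8.12 and 8.54 in Ra, against 9.61, 9.83 and 9.91 in vehicle, fell by 1.37 (adjusted p = 0.014), and all 3 of its other probe sets had the same sign, although the mean of its probe sets fell by only 0.70. RRAD, a small GTPase that restrains calcium channels, had 9.60, 9.81 and 10.23 in Ra, against 11.00, 11.08 and 11.25 in vehicle, and fell by 1.23. SCFD2 fell by 1.29 and also passed over all arrays with the block (adjusted p = 0.0053). RASSF4, RAB20, the mitochondrial aldehyde dehydrogenase ALDH1B1 and the endogenous retroviral gene ERVMER34-1 fell by 1.13, 1.09, 1.07 and 0.99. The remaining 4 of the 12 largest falls, GPATCH4, NOP16, NOL6 and CCDC86, encode nucleolar proteins, and fell by 1.01, 1.01, 0.98 and 0.97. GPATCH4 also passed over all arrays with the block (adjusted p = 0.038). With the mean of probe sets, RASSF4 fell by 0.74 and ALDH1B1 by 0.69.

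**Figure D2:**
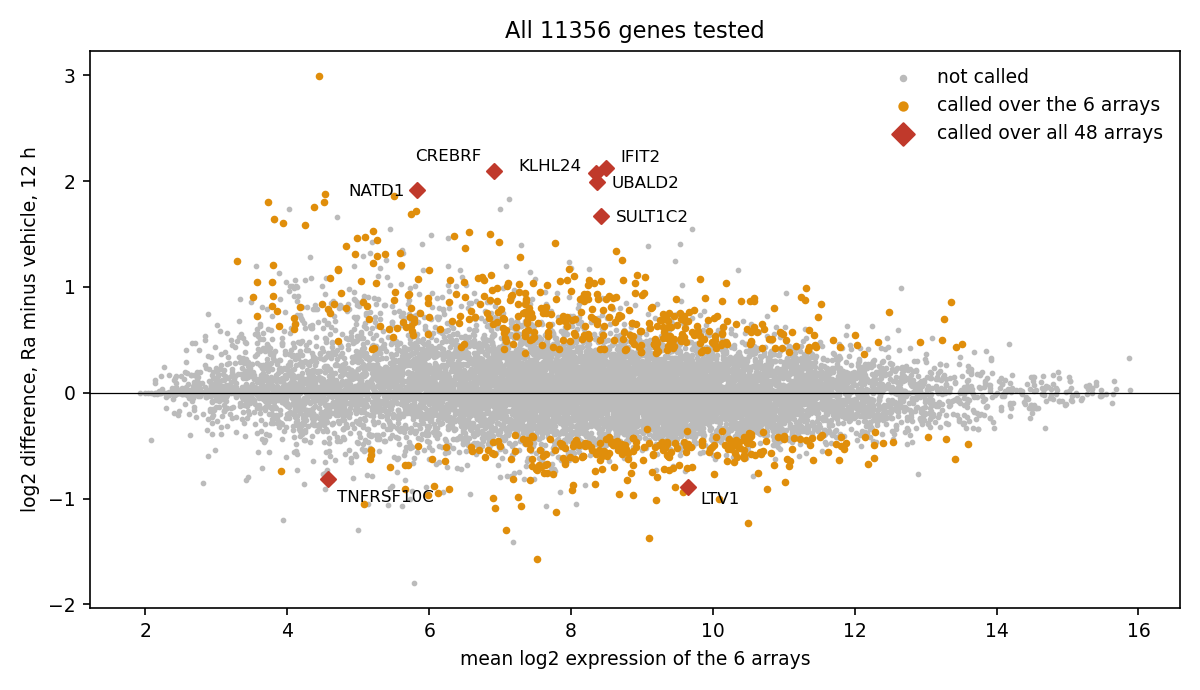
Log2 difference of Ra minus vehicle at 12 h (vertical axis) against the mean log2 level of the 6 arrays (horizontal axis) for all 11356 genes. Orange points are the 651 genes called over the 6 arrays and red diamonds the 8 called over all 48 arrays, 2 of which are not among the 651. Rises reach higher than falls, with 130 genes above 1 and 20 below -1.

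Gene lists were described by how many members each fit called, how many did not overlap, and the median difference. The values to read them against are those of all genes: over the 6 arrays 3.48% rose and 2.25% fell, without overlap 17.2% lay above and 15% below vehicle, and the median was 0.02. An unadjusted p under 0.05 over the 6 arrays was found for 3005 of the 11356 genes. With the block, 404 of the 11356 rose and 217 fell over the 6 arrays, and 56 rose and 21 fell over all 48. The lists were chosen with earlier results of these data known, so high counts can partly reflect the choice of members. Ribosome biogenesis factors had the lowest median of the lists, at -0.41. Of 45 measured members out of 50, 16 fell and 0 rose over the 6 arrays, or 35.6% lower against 2.25% of all genes. The values of 36 members (80%) lay entirely below vehicle, against 15% of all genes, and 44 of 45 differences were negative. NOP16, a nucleolar protein, had log2 values of 9.53, 9.46 and 9.77 in Ra, against 10.59, 10.62 and 10.57 in vehicle, and fell by 1.01 (adjusted p = 0.013). The 3 vehicle values were within 0.1 of each other and the Ra values were all lower. DDX10, an RNA helicase of small-subunit assembly, had 7.42, 7.62 and 7.62 in Ra, against 8.50, 8.50 and 8.41 in vehicle, and fell by 0.92 (adjusted p = 0.013). BYSL, which acts on the small subunit, had 9.16, 8.90 and 9.00 in Ra, against 9.83, 9.57 and 9.83 in vehicle, and fell by 0.73 (adjusted p = 0.029). MRTO4, PES1 and NOP2, factors of the large subunit, fell by 0.72, 0.60 and 0.60. POLR1C, a subunit of RNA polymerases I and III, fell by 0.62, and NAT10, the ribosomal RNA acetyltransferase, by 0.50. The nucleolar proteins NPM1 and NCL differed by -0.07 and -0.26, and neither was called. With the replicate block, 6 members passed over all 48 arrays, among them NOP16 and DDX10 (adjusted p = 0.032 and 0.040), against 1 without it.

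Cytosolic ribosomal proteins gave no calls. Of 49 measured cytosolic ribosomal proteins out of 74, 0 were called by either fit of limma and 1 had an unadjusted p under 0.05. Without overlap 5 of the 49 lay above and 2 below vehicle, against 17.2% and 15% of all genes. Their differences ran from -0.14 to 0.20 with a median of 0.00. Among translation factors, 2 of 39 rose and 3 fell over the 6 arrays (5.13% and 7.69%, against 3.48% and 2.25% of all genes). EEF2, the elongation factor that moves the ribosome, had 13.59, 13.47 and 13.39 in Ra, against 12.94, 12.96 and 13.05 in vehicle, and rose by 0.50 (adjusted p = 0.034). It missed with the block over the 6 arrays (adjusted p = 0.055) and passed with it over all 48 (adjusted p = 0.018). EIF2B3 and EIF2B5, subunits of the exchange factor of initiation, fell by 0.54 and 0.53, and EIF5B fell by 0.50. With the mean of its probe sets EIF5B missed (adjusted p = 0.083). With the block, 0 of the 39 rose and 2 fell over the 6 arrays. In nucleotide synthesis and one-carbon metabolism 3 of 26 fell (11.5%, against 2.25% of all genes) and 0 rose. SLC19A1, the folate carrier, fell by 0.76, UMPS of pyrimidine synthesis by 0.60, and PPAT of purine synthesis by 0.49. With the block, 3 of these 26 rose and 2 fell. In the MYC network, 2 of 18 fell, CCND2 and PA2G4 (11.1%, against 2.25% of all genes), and 0 rose. With the block 3 fell and 2 rose. MYC itself had 12.40, 12.09 and 12.34 in Ra, against 11.97, 11.56 and 12.03 in vehicle, a difference of 0.42 that was not called (adjusted p = 0.14 over the 6 arrays). PA2G4, a growth-regulated nucleolar protein, fell by 0.76, and passed over all arrays with the block (adjusted p = 0.022). HARS1 was the 1 aminoacyl-tRNA synthetase of 17 called (5.88% lower, against 2.25% of all genes), and fell by 0.52.

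Of 39 measured autophagy genes out of 40, 6 rose and 1 fell over the 6 arrays, or 15.4% higher against 3.48% of all genes. With the block 7 rose and 0 fell, against 404 and 217 of all 11356 genes. The groups did not overlap for 13 higher and 3 lower of the 39 members, against 17.2% and 15% of all genes, and the median was 0.05. GABARAPL1, a ubiquitin-like protein of the autophagosome membrane, had log2 values of 8.66, 8.66 and 9.02 in Ra, against 7.85, 7.64 and 7.66 in vehicle. Every Ra value exceeded every vehicle value, and GABARAPL1 rose by 1.06 (adjusted p = 0.018), with 1.06 at its second probe set. With the block it also passed over all 48 arrays (adjusted p = 0.038). The kinases ULK1 and ULK2 start autophagosome formation. ULK1 had 6.24, 6.07 and 6.16 in Ra, against 5.07, 5.27 and 5.36 in vehicle, and rose by 0.92. ULK2 had 5.07, 5.37 and 5.23 in Ra, against 4.29, 4.12 and 4.44 in vehicle, and rose by 0.94. RB1CC1, the scaffold of the ULK complex, rose by 0.51, BNIP3L, a receptor for mitochondria, by 0.72, and NBR1, a cargo receptor, by 0.58. ATG16L1, which directs the lipid conjugation of the LC3 family, fell by 0.40. The core genes ATG5, BECN1 and PIK3C3 differed by -0.01, 0.00 and -0.02. Of 36 lysosome genes, 0 were called by limma. Without overlap 9 of them lay above and 2 below vehicle, against 17.2% and 15% of all genes. An unadjusted p under 0.05 was found for 9 higher and 2 lower, against 3005 of all 11356 genes. With the block 1 rose.

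**Figure D3:**
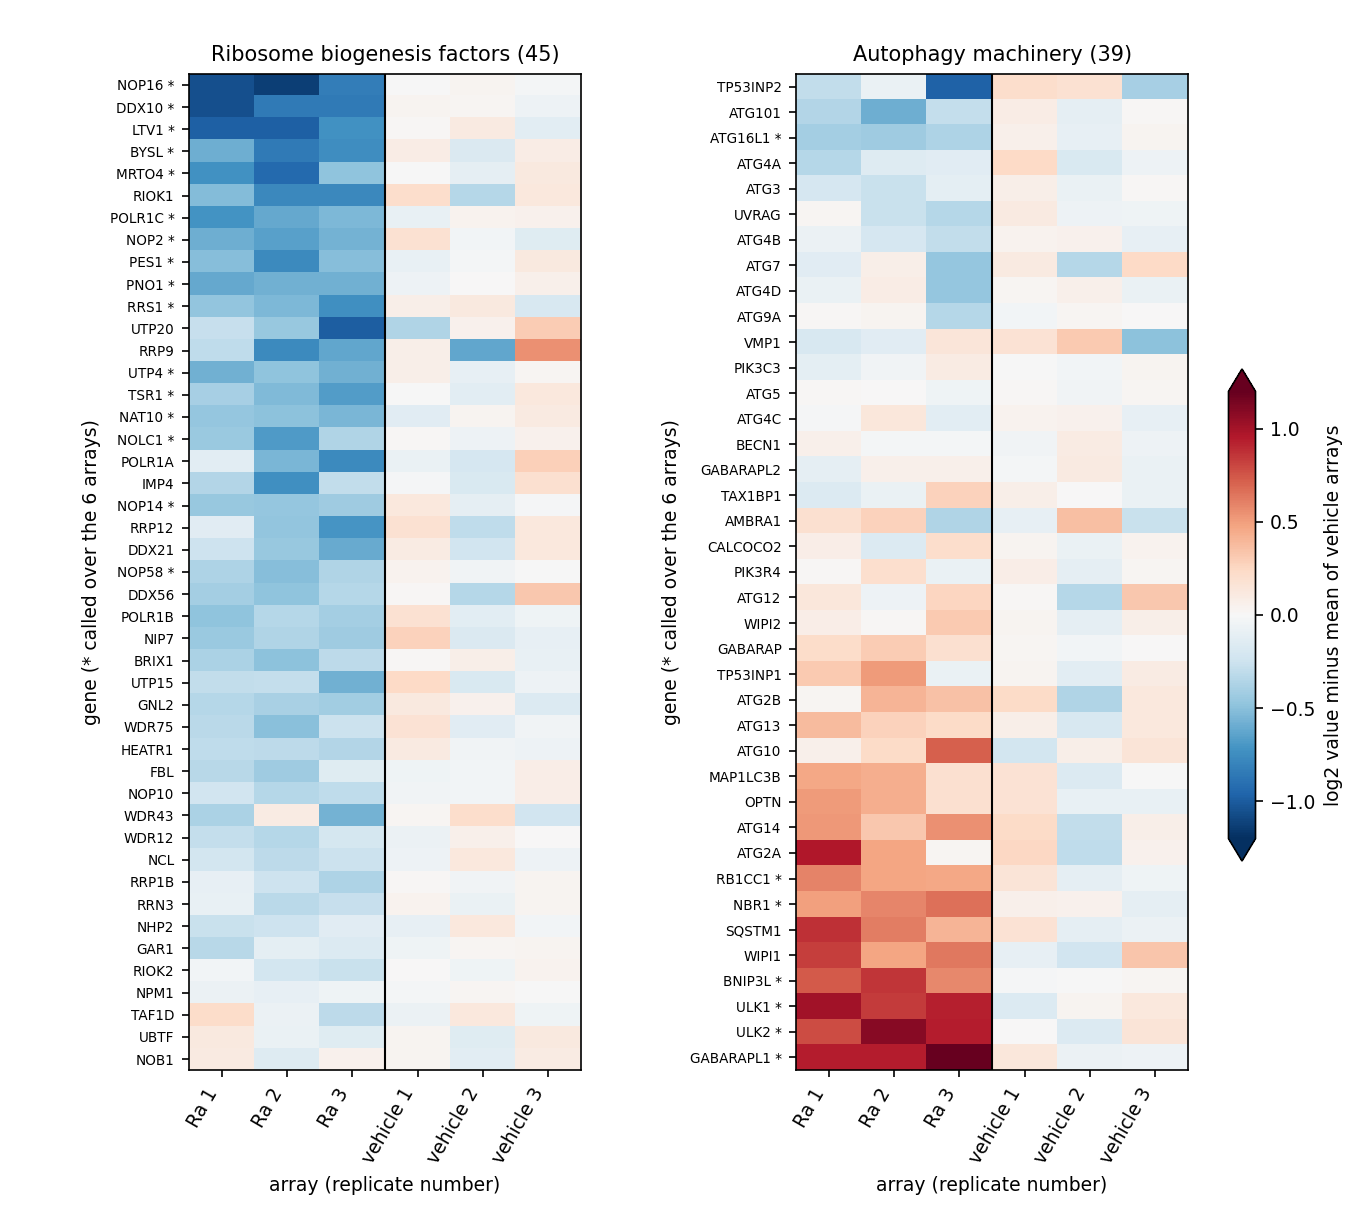
Log2 value minus the mean of the 3 vehicle arrays for each measured ribosome biogenesis factor (left, 45 genes) and autophagy gene (right, 39 genes), with 1 column per array and the Ra arrays to the left of the vehicle arrays. Blue is lower and red higher, and stars mark genes called over the 6 arrays. For 36 of the 45 ribosome biogenesis factors all 3 Ra arrays lie below all vehicle arrays, against 15% of all genes. For the autophagy genes 13 lie above and 3 below, against 17.2% and 15% of all genes.

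In the list of FOXO targets and insulin feedback, 5 of 26 measured genes rose and 0 fell over the 6 arrays. That is 19.2% higher, against 3.48% of all genes. Without overlap 12 lay above vehicle (46.2% against 17.2% of all genes) and 0 below, and the median was 0.28. KLHL24 led the list. FBXO32, the muscle-wasting ubiquitin ligase adaptor atrogin, had log2 values of 9.44, 9.05 and 9.43 in Ra, against 8.60, 7.68 and 7.63 in vehicle, and rose by 1.34 (adjusted p = 0.045). Vehicle replicate 1 was the highest of its group and still lay under all Ra values. IGF1R, the receptor of insulin-like growth factor, had 8.21, 8.25 and 8.03 in Ra, against 7.10, 7.12 and 7.21 in vehicle, and rose by 1.02 (adjusted p = 0.013), also over all 48 arrays with the block (adjusted p = 0.040). CCNG2, a cyclin of quiescent cells, had 11.67, 11.79 and 11.62 in Ra, against 10.90, 10.70 and 10.76 in vehicle, and rose by 0.91 (adjusted p = 0.014). RICTOR, a subunit of the second mTOR complex, rose by 0.45, and missed with the block (adjusted p = 0.053). INSR and IRS2, the receptor and an adaptor of insulin, differed by 0.42 and 0.24 without a call. DDIT4, a stress-induced inhibitor of mTOR complex I, had 11.60, 11.89 and 12.09 in Ra, against 12.45, 12.64 and 12.48 in vehicle, and fell by 0.67 (adjusted p = 0.046). Of 29 brakes of mTOR complex I and nutrient sensors DDIT4 was the 1 called (3.45% lower, against 2.25% of all genes). Of 20 genes of the mTOR complexes and their effectors RICTOR was the 1 called (5% higher, against 3.48%). With the block 1 of these 29 rose and 1 fell, and 0 of these 20 rose and 1 fell.

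Interferon-stimulated genes had the highest median of the lists, 0.47, and varied with the replicate number. Of 32 measured genes out of 40, 2 rose over the 6 arrays, IFI44L and HERC5 (6.25%, against 3.48% of all genes). Over all arrays 1 rose (IFIT2), and 0 were lower in either fit. Without overlap 12 lay above vehicle (37.5%, against 17.2% of all genes) and 0 below. HERC5, the ligase that attaches ISG15 to proteins, had log2 values of 10.77, 10.97 and 10.36 in Ra, against 9.95, 9.50 and 9.55 in vehicle, and rose by 1.03 (adjusted p = 0.039), also over all 48 arrays with the block (adjusted p = 0.014). IFI44 had 7.82, 8.40 and 7.37 in Ra, against 6.87, 6.10 and 5.41 in vehicle, a difference of 1.74 that missed in both fits (adjusted p = 0.062 over the 6 arrays). RSAD2, an antiviral enzyme, had 5.66, 6.97 and 3.98 in Ra, against 4.17, 4.12 and 3.32 in vehicle, and the groups overlapped. For IFIT2, IFIT1, IFIT3, DDX60 and RSAD2 the lowest Ra array and the lowest vehicle array were replicate 3. With the replicate block, 10 of the 32 rose over the 6 arrays and 6 over all 48, against 2 and 1 without it. ISG15, IFI6 and IFITM3 differed by 0.23, -0.01 and -0.11 and were not called.

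Of 27 promoter windows of interferon-stimulated genes, 15 (55.6%) held the interferon-stimulated response element, against 3.07% of all windows and 3.26% of those of genes higher over the 6 arrays. The window of IFI44L (chr1:78620198-78620447, plus strand, GRCh38.p14, RefSeq) is shown because IFI44L rose most among the list members called over the 6 arrays. The element is in capitals and occurs 2 times.
IFI44L: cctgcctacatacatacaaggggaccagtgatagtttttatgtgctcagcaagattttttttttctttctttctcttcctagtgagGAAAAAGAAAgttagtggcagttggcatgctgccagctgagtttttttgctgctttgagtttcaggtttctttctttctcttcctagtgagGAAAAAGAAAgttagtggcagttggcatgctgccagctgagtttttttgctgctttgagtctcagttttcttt
A match of these letters is a description of the window, and binding was not measured here.

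In the list of thioredoxin-interacting protein and glucose-responsive genes, 3 of 15 rose (20%, against 3.48% of all genes) and 0 fell over the 6 arrays. ARRDC3 rose by 0.94, HBP1 by 0.89 and ARRDC1 by 0.42, and the list's median was 0.41. TXNIP, an arrestin that limits glucose uptake, had log2 values of 10.05, 10.26 and 11.12 in Ra, against 8.47, 8.87 and 9.45 in vehicle. Every Ra value lay above every vehicle value, and replicate 3 was the highest of each group. Its difference of 1.55 missed over the 6 arrays (adjusted p = 0.054) and passed with the block (adjusted p = 0.032). With the block 5 of the 15 rose, although ARRDC1 missed (adjusted p = 0.063). HBP1, a repressor of cell-cycle genes, had 9.87, 9.99 and 9.90 in Ra, against 9.21, 9.05 and 8.83 in vehicle, and with the block it also passed over all 48 arrays (adjusted p = 0.025).

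Among CREB3-family and CREB regulators, 5 of 19 rose (26.3%, against 3.48% of all genes) and 0 fell over the 6 arrays. The list's median was only 0.03. Besides CREBRF, CREB3L4, a membrane-bound transcription factor, had 5.56, 6.11 and 5.80 in Ra, against 4.38, 4.07 and 4.62 in vehicle, and rose by 1.47 (adjusted p = 0.019). CREB3L2, ATF2 and CREBL2 rose by 0.68, 0.57 and 0.52. The other probe set of CREB3L2 differed by -0.01. With the mean of probe sets CREB3L2 and ATF2 missed (adjusted p = 0.082 and 0.078). Among Kelch and F-box adaptors 4 of 29 rose (13.8%, against 3.48% of all genes) and 0 fell. The 4 were KLHL24, FBXO32, FBXO25 (by 0.95) and KLHL42 (by 0.51). With the mean of probe sets KLHL42 differed by 0.20 and missed (adjusted p = 0.16). The values of 12 of the 29 (41.4%) lay above and of 6 (20.7%) below vehicle without overlap, against 17.2% and 15% of all genes.

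The unfolded protein response is set off by misfolded proteins in the endoplasmic reticulum. HSPA5, the main chaperone of the endoplasmic reticulum, had 14.29, 13.71 and 14.15 in Ra, against 14.05, 13.15 and 13.77 in vehicle, and the groups overlapped. DDIT3, the stress factor CHOP, differed by -0.08. Of 29 ER chaperones and degradation genes 2 rose (6.9%, against 3.48% of all genes), DNAJB9 by 0.93 and PDIA4 by 0.51. PDIA4 missed with the block (adjusted p = 0.072) and with the mean of probe sets, where it differed by 0.25 (adjusted p = 0.12). Among 29 ATF4 and CHOP targets, NIBAN1 rose by 1.12, with 9.64, 9.38 and 9.44 in Ra, against 8.35, 8.33 and 8.43 in vehicle, and DDIT4 fell. These calls are 3.45% each way, against 3.48% higher and 2.25% lower of all genes. With the block 4 of these 29 rose and 2 fell, against 404 and 217 of all 11356 genes. Heat shock chaperones were lower without overlap in 12 of 21 genes (57.1%, against 15% of all genes) and higher in 0, with a median of -0.24. Only HSPA4 fell by the test (4.76%, against 2.25% of all genes), by 0.47, and missed with the block (adjusted p = 0.056). Proteasome subunits were lower without overlap in 13 of 30 (43.3%, against 15%) and higher in 1, with a median of -0.18. Of these 30, 0 were called by limma. An unadjusted p under 0.05 was found for 10, all lower, against 3005 of all 11356 genes in either direction.

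Of matrix and TGF-beta response genes, 3 of 30 rose (10%, against 3.48% of all genes) and 0 fell over the 6 arrays. LAMB1, a laminin chain of the basement membrane, had 12.79, 13.04 and 12.77 in Ra, against 12.18, 12.13 and 12.01 in vehicle, and rose by 0.76 (adjusted p = 0.022), also over all arrays with the block (adjusted p = 0.012). SMAD7, an inhibitor of the pathway, and TGFBR1, its receptor, rose by 0.80 and 0.57. Of the immediate early genes 3 of 27 rose (11.1%, against 3.48%), MAFF by 0.87, PHLDA1 by 0.84 and JUNB by 0.69. JUNB missed with the block (adjusted p = 0.055). MAFF missed with the mean of probe sets (adjusted p = 0.062). Of 33 glycolysis and hypoxia genes 4 rose (12.1%, against 3.48%), BNIP3L, NDRG1, PDK1 and KDM3A, and 2 with the block. ABCC3, a bile salt and drug exporter, rose by 0.90 (0.48 with the mean of probe sets), with 9.10, 9.03 and 9.11 in Ra, against 8.33, 8.05 and 8.14 in vehicle. ABCB1, the drug efflux pump, fell by 0.49, and missed with the block (adjusted p = 0.053). With the mean of probe sets, PDK1 and ABCB1 missed (adjusted p = 0.11 and 0.088). The cell-cycle lists gave 1 rise (PRIM1) and 1 fall (FEN1) among 44 replication genes. That is 2.27% each way, against 3.48% higher and 2.25% lower of all genes. Among 37 mitotic genes 2 fell (5.41%), AURKA by 0.53 and PRC1 by 0.42. With the block 1 of these 44 rose and 0 fell, and 0 of these 37 rose and 1 fell. AURKA missed with the mean of probe sets (adjusted p = 0.074). Cholesterol synthesis, fatty acid synthesis and fatty acid oxidation had 0 calls among 23, 23 and 24 genes by limma. At an unadjusted p under 0.05 there were 2, 2 and 2, against 3005 of all 11356 genes. Of 26 p53 targets DDB2 rose by 0.69 and TIGAR fell by 0.56 over the 6 arrays. That is 3.85% each way, against 3.48% higher and 2.25% lower of all genes. TNFRSF10C fell over all arrays, and CDKN1A was not called. Of 44 respiratory chain genes only CYCS was called (2.27% lower, against 2.25% of all genes). CYCS fell by 0.42, which missed with the mean of probe sets (-0.22, adjusted p = 0.41). Without overlap 15 of the 44 (34.1%, against 15% of all genes) lay below vehicle and 2 above. Of 26 antioxidant genes of the NRF2 list 1 rose over the 6 arrays (3.85%, against 3.48%), ABCC3, and 3 rose with the block.

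Of 26 measured markers of kidney injury 1 fell over the 6 arrays (3.85%, against 2.25% of all genes) and 0 rose. With the block 1 fell and 2 rose. HAVCR1, the injury marker KIM of the proximal tubule, had 10.42, 10.78 and 10.90 in Ra, against 10.78, 10.39 and 10.54 in vehicle, and the groups overlapped. CLU differed by 0.28, HMOX1 by 0.74 and CDKN1A by 0.08, and their groups overlapped as well. LCN2 averaged 3.73 in Ra and 3.94 in vehicle, under the filter level on this measure. GDF15, a secreted stress hormone, had 11.85, 11.44 and 11.22 in Ra, against 11.08, 10.25 and 10.34 in vehicle. Its difference of 0.95 missed over the 6 arrays (adjusted p = 0.083) and passed with the block (adjusted p = 0.034). The marker that fell was CD24, with 13.36, 13.38 and 13.33 in Ra, against 13.85, 13.84 and 13.84 in vehicle, a fall of 0.49 that missed with the mean of probe sets (adjusted p = 0.056). Of 12 measured proximal tubule transport genes, only SLC22A5, the carnitine transporter, was called (8.33% lower, against 2.25% of all genes), and fell by 0.70. Immunophilins and calcineurin genes had 0 calls among 30 by limma. At an unadjusted p under 0.05 there were 6, 3 higher and 3 lower, against 3005 of all 11356 genes.

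**Figure D4:**
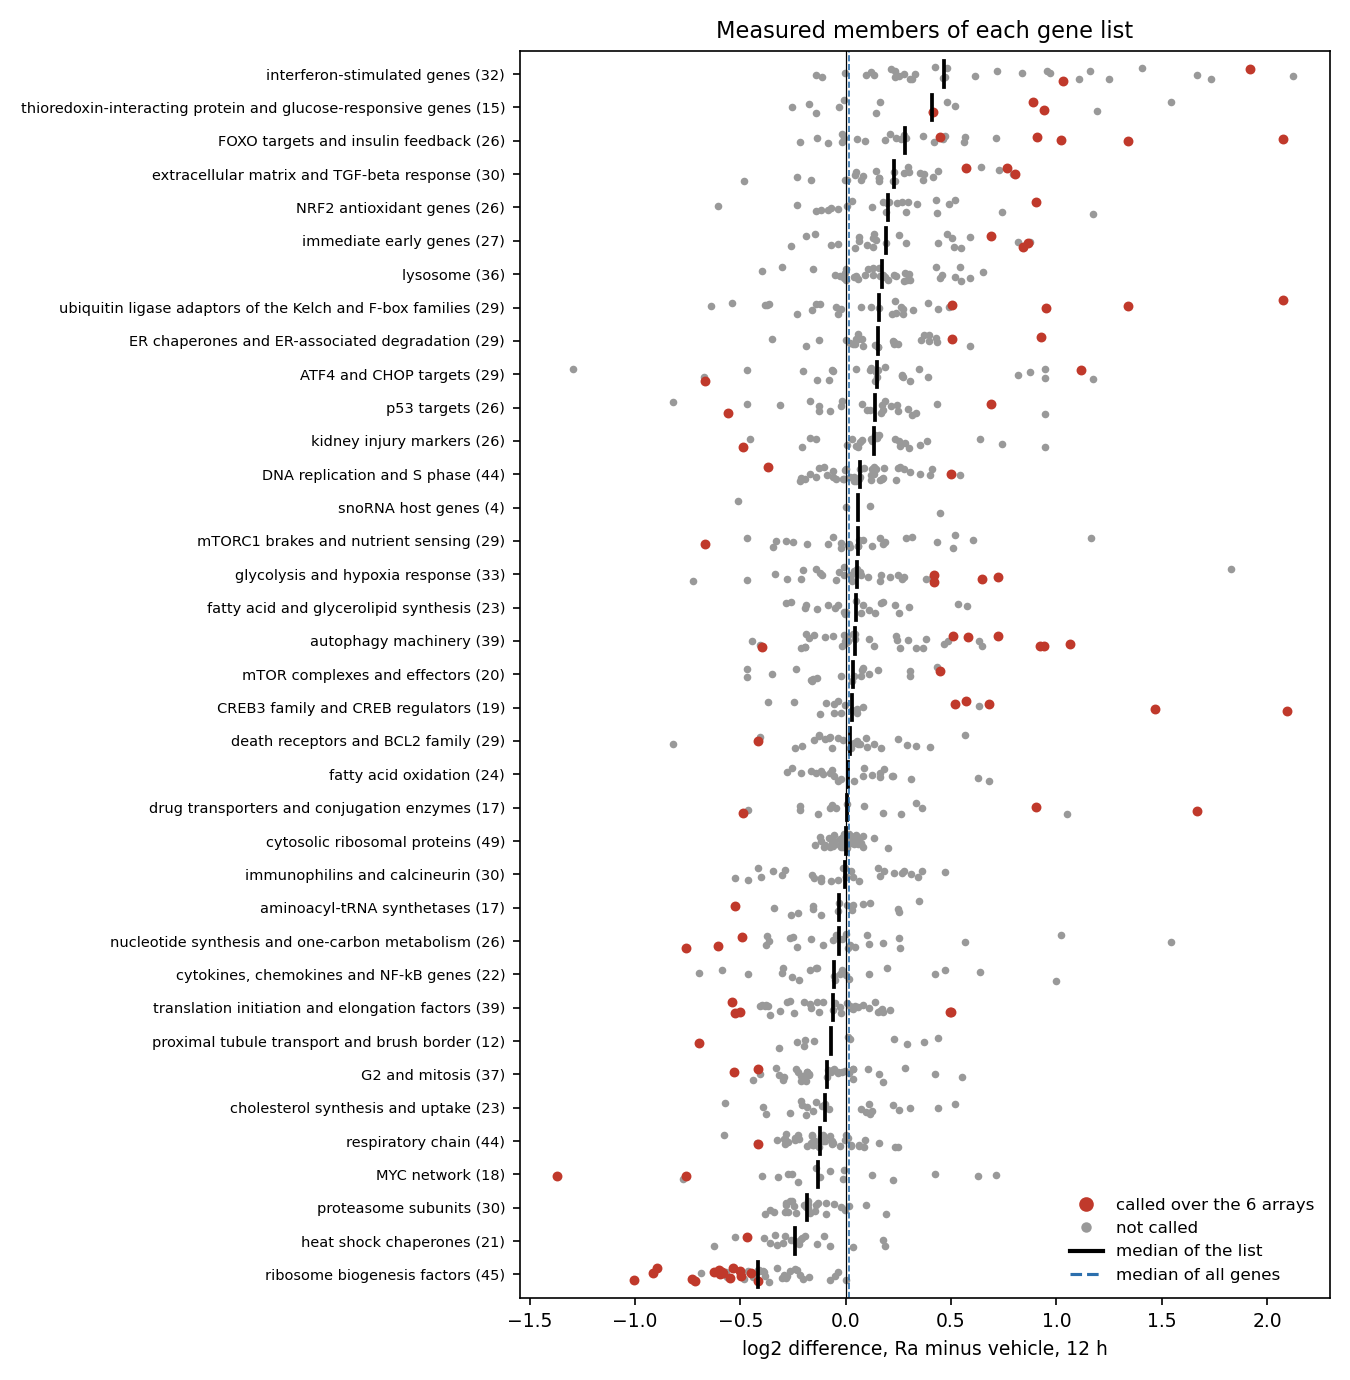
Log2 difference of Ra minus vehicle at 12 h for each measured member of 37 gene lists, with the number of members in brackets. Red points were called over the 6 arrays, black bars are list medians, and the dashed line is the median of all genes, 0.02. Medians run from -0.41 for ribosome biogenesis factors to 0.47 for interferon-stimulated genes.

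Fk was tested against the same vehicle arrays at 12 h, so its differences share their controls with those of Ra, and the values are given side by side. Ribosome biogenesis factors had a median of -0.41 in Ra and -0.24 in Fk, FOXO targets 0.28 and 0.14, and interferon-stimulated genes 0.47 and 0.23. KLHL24 differed from vehicle by 2.08 in Ra and 0.13 in Fk, CREBRF by 2.09 and 0.75, UBALD2 by 1.99 and 0.83, NATD1 by 1.92 and 0.42, IFIT2 by 2.12 and 1.09, SULT1C2 by 1.67 and 1.07, LTV1 by -0.89 and -0.30, and TNFRSF10C by -0.82 and -0.63. ANKRA2 differed by 1.72 in Ra and 2.05 in Fk. A direct test of Ra minus Fk at 12 h over all arrays called 1 of 11356 genes (0.00881%), KLHL24, which was higher in Ra than in Fk by 1.94 ± 0.32 (SE, adjusted p = 0.0067). It called 0 genes without Ra replicate 1 or Ra replicate 2, and 875 genes had an unadjusted p under 0.05 with all arrays. Over the 18 arrays of the Fk and Ra set KLHL24 missed (adjusted p = 0.074), and the 1 gene called there was YPEL1. For CREBRF the difference between the compounds was 1.34 ± 0.41 (SE) and for IFIT2 1.03 ± 0.43 (SE), neither of which passed. For the other genes the test did not show a difference between the compounds, which is not evidence that they act alike.

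The Ra difference at 48 h, taken against its own vehicle arrays of 48 h, was compared with that at 12 h in the fit over all arrays. The change between the times passed for 411 genes (3.62%), 35 with a higher and 376 with a lower difference at 48 h. That split depended on scaling, since the median of all 48 h differences was -0.18: with centred arrays it was 184 higher and 157 lower, and with quantile normalisation 115 and 188. The second replicate of Ra at 48 h stood apart, with an upper quartile of probe set values of 6.20, against 6.91 to 7.10 in the 6 arrays of 12 h, and without it 87 genes passed. Of the 651 genes called at 12 h, 65 were among the 411: 58 rises and 0 falls were lower at 48 h, and 1 rise and 6 falls were higher. The 12 h arrays enter both the call and the time difference, so the direction of these counts is partly set by the choice of genes.

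Of the 8 genes called over all arrays, KLHL24 differed from vehicle by -0.26 at 48 h, against 2.08 at 12 h, a time difference of -2.34 ± 0.45 (SE, adjusted p = 0.0053), or -2.04 without the array that stood apart (adjusted p = 0.025). CREBRF was at -1.06 at 48 h, NATD1 at -0.94 and SULT1C2 at -0.95, and their time differences of -3.16, -2.85 and -2.62 passed with and without that array. IFIT2 was at -0.18, and its time difference of -2.30 passed with all arrays (adjusted p = 0.028) but not without it (adjusted p = 0.12). UBALD2 remained higher at 48 h, by 1.15, and LTV1 remained lower, by 0.88. ANK2 differed by -3.99 at 48 h, against 1.48 at 12 h, the largest time difference among the named genes (-5.47 ± 0.69, adjusted p = 3.3e-05). DDIT3 lay 3.50 below vehicle at 48 h, against -0.08 at 12 h, but its time difference of -3.42 did not pass (adjusted p = 0.069). The list medians at 48 h with centred arrays were -0.16 for ribosome biogenesis factors, 0.06 for FOXO targets, 0.08 for interferon-stimulated genes, and 1.22 for replication genes, against -0.45, 0.24, 0.43 and 0.03 at 12 h with the same centring. Of the ribosome biogenesis factors, 0 of 45 passed the test of the time difference. In the FOXO list 1 of 26 and in the interferon list 2 of 32 passed as lower at 48 h. In the replication list 2 of 44 passed as higher, against 3.62% of all genes in either direction. Other lists had more, all lower at 48 h: 9 of 29 ATF4 and CHOP targets and 9 of 17 aminoacyl-tRNA synthetases. ER chaperones and degradation genes had 5 of 29, and nucleotide synthesis and one-carbon genes 5 of 26. The centred medians of these lists were -1.84, -0.60, -0.75 and 0.18 at 48 h, against 0.11, -0.07, 0.12 and -0.07 at 12 h.

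**Figure D5:**
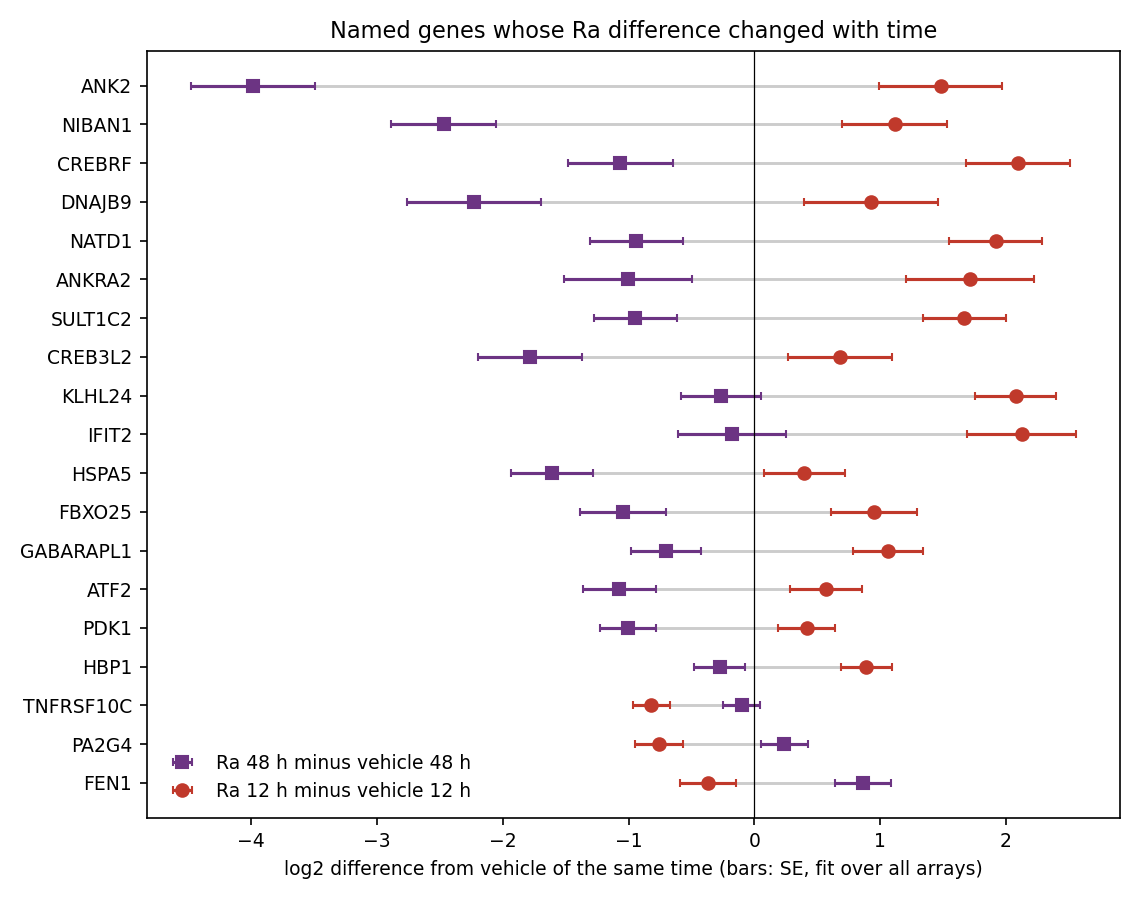
Log2 difference from the vehicle arrays of the same time for the 19 named genes whose Ra difference at 48 h (purple squares) was not that at 12 h (red circles) in the fit over all 48 arrays. Bars are 1 SE. In 16 genes the 48 h value is lower and in FEN1, PA2G4 and TNFRSF10C it is higher.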

How the data were processed

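Expression of HK-2 cells was measured on 48 arrays. The deposited table holds log2 values of 54675 probe sets, made by the authors with GCRMA per the submitters' processing notes (version not given). GCRMA in general removes background by a model of probe sequence and normalises arrays by quantiles, which can shrink differences of dim genes. With 3 arrays in each group, their number sets the precision.

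Of the probe sets, 62 controls, 1801 with several symbols and 11721 without a listed gene were left out, and 41091 with 1 symbol of the platform annotation were kept. Probe sets above log2 4 in at least 3 arrays (20960) were reduced to the 1 of highest mean per gene, giving 11356 genes. Group means were fitted with limma 3.58.1 in R 4.3.3, over all 48 arrays and over the 6 arrays, with Benjamini-Hochberg adjusted p under 0.05. The methods were tested on simulated data. Replicate numbers come from the labels and were used as the block, although no label states that they pair the samples. Same-number deviations of the Ra and vehicle arrays of 12 h correlated at 0.14, 0.35 and 0.29, against -0.33 to 0.00 for other numbers. Deviations from a mean of 3 arrays cancel within a group, so the values for other numbers are not independent of these. In the whole Fk and Ra set 19 of 45 same-number pairs correlated above 0.1, and the pairs ran from -0.18 to 0.76. Alternatives were centring, quantile normalisation, other filters, probe set means, a trended prior, array weights, fewer arrays, the replicate block and each array left out.

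The members and lists were chosen with earlier results of these data known. Named genes are those called over all arrays, the 12 largest rises and falls called over the 6 arrays without overlap and with a group mean above log2 6, up to 4 called members per list, and 13 fixed genes, CDKN1A, CLU, DDIT3, DDIT4, GDF15, HAVCR1, HMOX1, HSPA5, IFIT2, IRS2, LCN2, MYC and TXNIP. Other list members named with values were chosen after these were seen. Promoter windows come from RefSeq.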

Additional observations from a re-analysis of the deposited data

Results flagged for a closer look

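The Ra difference from vehicle was not the same at 48 h as at 12 h for 19 of the named genes, by a test of the difference itself in limma over all 48 arrays. Values are the difference at 48 h minus that at 12 h on the log2 scale.

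In 16 of the 19 it was lower at 48 h. The membrane-skeleton adaptor ANK2 had the largest value, -5.47. NIBAN1 had -3.58, CREBRF -3.16, the chaperone cofactor DNAJB9 -3.16, NATD1 -2.85, ANKRA2 -2.72 and SULT1C2 -2.62. CREB3L2 had -2.47, KLHL24 -2.34, IFIT2 -2.30, the chaperone HSPA5 -2.00 and FBXO25 -1.99. GABARAPL1 had -1.77, ATF2 -1.64, the metabolic kinase PDK1 -1.42 and HBP1 -1.16. The other 3 were higher at 48 h, FEN1 by 1.23, PA2G4 by 1.00 and TNFRSF10C by 0.72.

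With centred arrays 18 of the 19 passed and all 19 kept their sign. HBP1 missed (adjusted p = 0.060). Without the second Ra replicate of 48 h, all 19 kept their sign and 8 passed, ANK2, NIBAN1, CREBRF, NATD1, SULT1C2, KLHL24, FEN1 and PA2G4.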

How the results depend on the processing

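The count of 8 genes over all arrays was 24 with centred arrays (13 higher and 11 lower, against 6 and 2), 19 with quantile normalisation (11 and 8), 13 without a filter on low values (7 and 6), 4 with the mean of probe sets (2 and 2, without CREBRF, IFIT2, KLHL24 and SULT1C2), 77 with the replicate block (56 and 21), 2313 with array weights (1189 and 1124, from a weight estimate that did not converge), 58 over the 9 arrays of Ra, Fk and vehicle at 12 h (36 and 22, with 5 of the 8), 20 over 47 arrays without the second Ra replicate of 48 h (12 and 8) and 23 over 42 arrays without the Ra and vehicle groups of 48 h (13 and 10). Over the 18 arrays of the Fk and Ra set it was 6 (5 and 1), with 3 of the 8, KLHL24, UBALD2 and NATD1. The settings with 47 and 42 arrays were chosen after seeing the data. With an array left out it ran from 1 to 11. The 651 calls over the 6 arrays became 382 with no filter (197 higher and 185 lower), 83 with a difference of at least 1 (73 and 10), and 0 to 349 with an array left out. With centred arrays they were 747 (394 and 353).

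The 411 genes that changed between the times were 23 over the 18 arrays of the Fk and Ra set, 1339 with the replicate block, and 83 to 313 with an array left out. The 1 gene of Ra minus Fk became 2 with quantile normalisation and 5 with the replicate block, and 0 to 3 with an array left out, and over the 18 arrays the 1 gene was another. The causes of these shifts were not tested. Besides the named genes given with it, the block over the 6 arrays ended the calls of DDB2, PRIM1, KDM3A, PDK1, FEN1, CYCS, PRC1, PPAT and EIF5B.

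Of the 78 named genes called over the 6 arrays, 73 were called with centred arrays, 74 with quantile normalisation, 41 with no filter and 62 with the block. Differences of 3 genes that were not called changed sign with an array left out: CDKN1A (0.08) ran from -0.11 to 0.34, DDIT3 (-0.08) from -0.20 to 0.10 and LCN2 (-0.21) from -0.52 to 0.072. With an array left out, list medians ran from -0.50 to -0.39 for ribosome biogenesis factors, from 0.23 to 0.37 for FOXO targets and from 0.32 to 0.68 for interferon-stimulated genes.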

Other observations

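Some large differences fell outside the named genes because their level or their call did not meet the rule, and these were chosen after their values were seen. The monocarboxylate transporter gene SLC16A14 had the largest difference of all, with a mean log2 level of 5.94 in Ra and 2.95 in vehicle, a rise of 2.99 over the 6 arrays (adjusted p = 0.014) in a gene under the filter level in vehicle. The complement receptor gene C5AR1 averaged 5.42 in Ra and 3.61 in vehicle, also under the filter level there, and rose by 1.81 (adjusted p = 0.013). RHEX had the largest negative difference, -1.79, at 4.89 in Ra and 6.69 in vehicle, and was not called (adjusted p = 0.069). CA12, a carbonic anhydrase of the cell surface, averaged 8.04 in Ra and 6.20 in vehicle, a difference of 1.83 that was not called (adjusted p = 0.064).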
